A study of Homo sapiens with 18 samples.

Results

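The 79 genes described here carry the names of mitochondrial ribosomal proteins and were measured in PANC-1 cells, an established line from a pancreatic ductal carcinoma. They were chosen by name alone, as protein-coding genes whose symbol is MRPL or MRPS with a number and an optional letter, together with DAP3, and they are 79 of the 58302 genes in the expression table. By their place in the ribosome, 27 belong to the small subunit and 51 to the large subunit, while MRPS36, now known as a component of the alpha-ketoglutarate dehydrogenase complex, was counted apart. PANC-1 cells that carried a lentiviral control (shCtrl), described in the labels as an empty shRNA vector while the study's oligo list names a non-targeting shRNA, were compared with PANC-1 cells that carried a lentiviral shRNA against NAT10 (shNAT10), as stable lines. RNA-seq was made from 3 libraries per line, and acRIP-seq, in which fragmented RNA is pulled down with an antibody against N4-acetylcytidine (ac4C), from 3 immunoprecipitated (IP) and 3 input libraries per line. Both lines come from 1 cell line and 1 shRNA against NAT10 is labelled, and nothing states that replicates are separate cultures, so that p-values measure the spread between these libraries, which may be technical.

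The mitochondrial ribosome translates the few mRNAs of the mitochondrial chromosome, all of which encode subunits of the respiratory chain and the ATP synthase. Its rRNAs are transcribed inside the organelle, whereas every protein of it is encoded in the nucleus, made in the cytosol and imported. Part of these proteins descend from bacterial ribosomal proteins and the others were gained in mitochondria. NAT10 is the acetyltransferase that writes ac4C on RNA, and the comparison asks which transcripts change in level, and where the ac4C antibody enriches RNA, when it is depleted.

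NAT10 (ENSG00000135372, chr11:34105602-34147670, plus strand) itself had an FPKM (reads scaled by gene length and library total) of 31.6, 27.7 and 28.6 in the shCtrl libraries and of 7.92, 8.43 and 7.90 in the shNAT10 libraries. Its log2 fold change was -1.84 ± 0.08 (SE, n = 3 per group) with an adjusted p of 3.9e-05 by limma, and all shNAT10 values lay below all shCtrl values, for which an exact two-sided permutation test gives p = 0.10, the smallest it allows. Gene positions are of GENCODE v29 on GRCh38. The library totals inferred from the FPKM values lay between 15831720 and 23521762 reads. All 5 epithelial markers were expressed. The keratins KRT7, KRT8, KRT18 and KRT19 were lower in shNAT10 (KRT8 at a mean FPKM of 1739 in shCtrl and 766 in shNAT10), and EPCAM was higher, at 4.87 and 22.6 (log2 fold change 2.20, adjusted p = 6.9e-05, limma). The blood and endothelial markers PTPRC, CD3E, CD68, PECAM1 and VWF had mean FPKM of at most 0.0425. Of the fibroblast markers PDGFRB was near 0 and COL1A1 had 31.1 in shCtrl and 19.2 in shNAT10. The part of these markers in the results was not tested. In the library shCtrl replicate 2 the mitochondrial ribosomal protein genes stood above the other control libraries. It was the highest of the 3 control libraries for 70 of the 76 members tested (92.1%), against 47.1% of all genes tested, and the highest of all 6 for 55 members. The counts below are therefore also given without that library. All 17 members called lower and all 6 called higher with it were called without it too. Other omissions kept fewer calls. Without shCtrl replicate 3 or any 1 of the shNAT10 libraries, 5 to 7 of the 17 and 0 of the 6 were called, with shares of all genes given below.

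**Figure D1:**
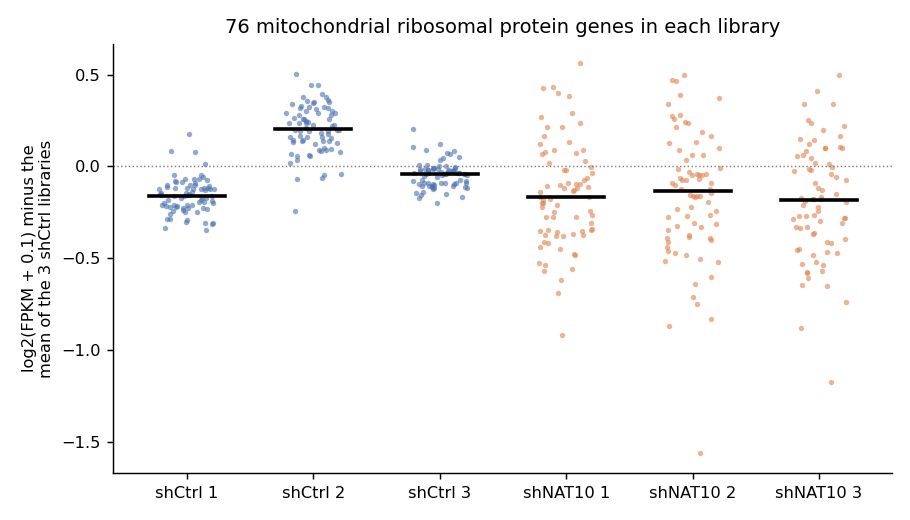
Each point is 1 of the 76 members tested, plotted by library as the difference of its log2(FPKM + 0.1) from the mean of the 3 shCtrl libraries, and the black lines are medians. The median lies at -0.16, 0.21 and -0.04 in the shCtrl libraries and at -0.17, -0.13 and -0.18 in the shNAT10 libraries.

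The RefSeq promoter table for GRCh38.p14, from 250 bases before to 50 bases after the start, held a promoter for 70 of the 79 members. Motifs were searched on both strands as exact letters. The ETS core (CCGGAAG) was found in 29 member promoters (41.4%), against 20.7% of the 9133 promoters of genes tested and 10.7% of all 27305 promoters. The YY1 motif (AAGATGGC) was found in 20 member promoters (28.6%), against 5.87% and 3.03%. The NRF1 core (TGCGCA, its own reverse complement) was found in 14 member promoters (20%), against 14.5% and 8.42%. For the CREB core (TGACGT), the CCAAT box (CCAAT) and the E-box (CACGTG) the member shares were 7.14%, 28.6% and 8.57%, each below the share of genes tested at 12.1%, 37.3% and 10.4%. The ETS core ends in the letters with which the YY1 motif begins, so that these matches can overlap by 3 bases. A match is a description of the letters only.

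The upstream parts of 6 promoters of called members are shown as examples, not as the 6 widest changes, with every motif match in capitals. They are written 5′ to 3′ on the strand of the gene and end at the base before the RefSeq start. MRPL34 (chr19:17292323-17292572, plus strand) and MRPL24 (chr1:156741089-156741338, minus strand), which fell and rose as described below, hold none of the 6 motifs there. MRPL20 (chr1:1407294-1407543, minus strand) holds the ETS core in 2 places, MRPS12 (chr19:38930694-38930943, plus strand) holds the YY1 motif and 4 CCAAT boxes, MRPL32 (chr7:42932126-42932375, plus strand) holds the YY1 motif, 2 NRF1 cores and 1 CCAAT box, and MRPS33 (chr7:141014953-141015202, minus strand) holds 1 NRF1 core. Over the 300 bases searched, with the 50 after the start, MRPL20 also holds a YY1 motif, and MRPS12 and MRPS33 hold the ETS core.
MRPL34: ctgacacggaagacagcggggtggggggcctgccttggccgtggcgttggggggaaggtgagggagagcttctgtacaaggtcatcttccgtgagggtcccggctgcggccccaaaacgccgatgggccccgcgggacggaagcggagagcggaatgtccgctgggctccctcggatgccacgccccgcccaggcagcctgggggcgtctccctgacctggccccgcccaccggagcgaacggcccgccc
MRPL20: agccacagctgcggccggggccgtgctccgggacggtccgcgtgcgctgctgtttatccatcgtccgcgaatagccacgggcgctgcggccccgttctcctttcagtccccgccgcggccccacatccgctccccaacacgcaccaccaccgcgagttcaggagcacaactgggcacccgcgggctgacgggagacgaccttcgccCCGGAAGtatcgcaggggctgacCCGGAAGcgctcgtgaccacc
MRPS12: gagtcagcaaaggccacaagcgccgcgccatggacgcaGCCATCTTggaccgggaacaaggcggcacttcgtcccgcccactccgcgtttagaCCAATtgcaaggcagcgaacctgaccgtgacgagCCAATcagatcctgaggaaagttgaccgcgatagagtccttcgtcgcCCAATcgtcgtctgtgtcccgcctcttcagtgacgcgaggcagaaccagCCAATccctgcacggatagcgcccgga
MRPL32: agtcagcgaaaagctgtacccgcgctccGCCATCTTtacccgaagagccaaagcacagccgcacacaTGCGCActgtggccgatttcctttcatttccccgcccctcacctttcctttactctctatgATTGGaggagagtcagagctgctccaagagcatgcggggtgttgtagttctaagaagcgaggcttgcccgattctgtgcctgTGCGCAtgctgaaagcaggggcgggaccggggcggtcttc
MRPS33: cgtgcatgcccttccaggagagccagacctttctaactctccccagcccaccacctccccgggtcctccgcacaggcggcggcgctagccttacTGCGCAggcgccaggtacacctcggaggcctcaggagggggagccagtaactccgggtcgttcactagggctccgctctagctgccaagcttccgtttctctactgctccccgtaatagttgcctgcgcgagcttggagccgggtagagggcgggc
MRPL24: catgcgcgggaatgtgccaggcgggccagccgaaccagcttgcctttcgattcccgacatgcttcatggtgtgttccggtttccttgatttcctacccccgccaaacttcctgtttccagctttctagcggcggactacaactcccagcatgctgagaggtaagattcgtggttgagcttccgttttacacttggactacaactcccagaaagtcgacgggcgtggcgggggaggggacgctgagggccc

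Of the 17 members called lower in shNAT10 cells, all had a promoter in the table, and the ETS core was found in 8, the CCAAT box in 7, the NRF1 core in 4 and the YY1 motif in 4. Of the 6 called higher, 2 held the ETS core, 2 the NRF1 core and 0 the YY1 motif or the CCAAT box. With so few members in each direction these counts are given without a test.

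In level, the members spanned a wide range. The median over members of the mean FPKM of the 6 libraries was 22.9, with 62 members between 10 and 100, 15 below 10 and 2 above 100. The highest was MRPL3 (ENSG00000114686, chr3:131462212-131502983, minus strand), a protein with a bacterial counterpart that reaches towards the peptidyl transferase centre, at 125, 136 and 127 in shCtrl and 152, 153 and 151 in shNAT10. MRPS12 (ENSG00000128626, chr19:38930548-38933162, plus strand), a protein of the decoding centre, had 132, 199 and 147 in shCtrl and 108, 113 and 105 in shNAT10. MRPL37, one of the proteins without a bacterial counterpart, followed with 86.5, 110 and 95.7 against 90.4, 94.2 and 85.6, and its groups overlapped.

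The lowest members were MRPS24, MRPL46 and MRPL38, at mean FPKM of 0.152, 0.610 and 0.878, and these 3 fell below the minimum of 1 FPKM in at least 3 libraries and were not tested. MRPS24 had 0.267, 0.0858 and 0.172 FPKM in shCtrl and 0.11, 0.149 and 0.131 in shNAT10, with overlapping groups. MRPL38 had 0.885, 1.15 and 1.15 against 0.569, 0.736 and 0.779, and MRPL46, both proteins of the central protuberance, had 0.498, 0.604 and 0.619 against 0.659, 0.638 and 0.641. MRPL38 was lower in every shNAT10 library and MRPL46 higher in every one. The annotation differs for these genes, since 6 members share at least 50% of their longest coding transcript with exons of another gene on the same strand, namely MRPS24 (81.0%, with URGCP-MRPS24), MRPL46 (71.05%), MRPL12 (68.2%), MRPL38 (67.85%), MRPS28 (55.4%) and MRPL53 (52.3%). These 6 are also the 6 lowest of the family, with mean FPKM of 0.152 to 2.76, while the lowest of the other 73 stands at 3.09 (MRPS17, 31.6% shared). How reads in shared exons were assigned was not tested, so the levels of these genes are uncertain.

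Across the 76 members tested with limma, 17 were lower (22.4%) and 6 were higher (7.89%) in shNAT10 cells (adjusted p below 0.05), beside 21.2% lower and 20.8% higher among the 12982 genes tested. With all 6 libraries the share lower was near that of all genes, and the share higher was below it. No member passed an additional threshold of 1 on the log2 scale in either direction, which 3.57% of genes passed downward and 2.91% upward. The median log2 fold change was -0.17 over the members and -0.01 over all genes, with 56 members below 0 and 20 above. All shNAT10 values lay below all shCtrl values for 31 members (40.8%, against 28.6% of all genes), and above them for 10 (13.2%, against 27.9%). Without shCtrl replicate 2, 22 members were lower (28.9%, against 25.1% of all genes) and 14 higher (18.4%, against 26.1%), and the median was -0.06. When FPKM were rescaled to TPM, which moved the median of all genes from -0.01 to 0.10, 13 members were lower (17.1%, against 16% of all genes) and 14 higher (18.4%, against 25.8%), and the median was -0.06. The share lower depended on the libraries used. Without shCtrl replicate 1, 31 members were lower (40.8%, against 22.6% of all genes) and 2 higher (2.63%, against 22.7%). Without shCtrl replicate 3, 7 were lower (9.21%, against 14.1%) and 0 higher (against 15.6%). Without shNAT10 replicate 1, 7 were lower (9.21%, against 14.4%), and without shNAT10 replicate 2 or 3, 5 were (6.58%, against 14.9% and 13.9%), with 0 higher each time (against 13.9%, 13.5% and 13.6% of all genes). In a bulk sample, less RNA per cell and fewer cells that carry it cannot be told apart.

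**Figure D2:**
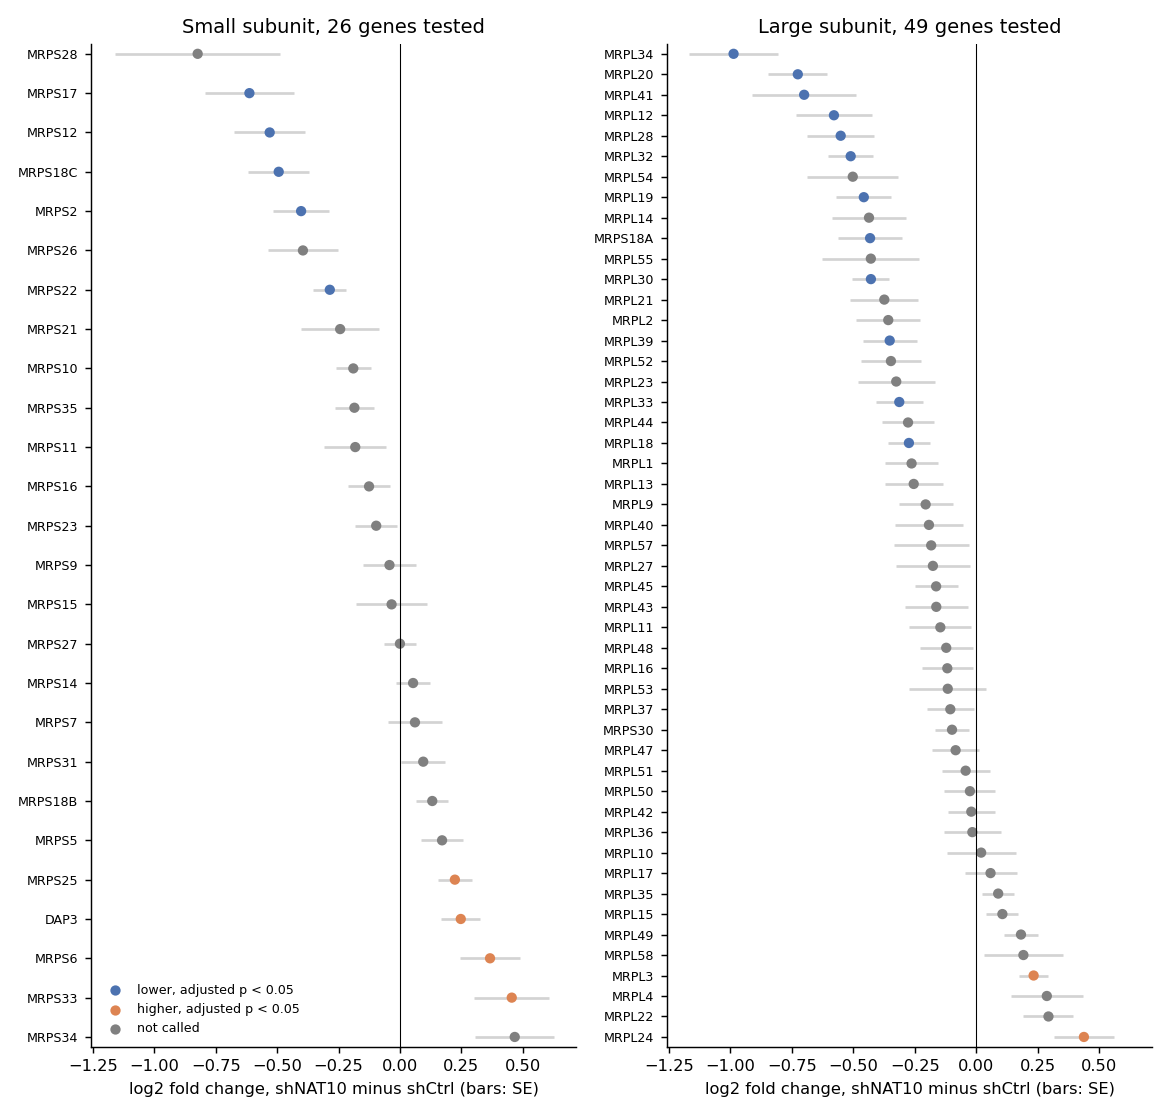
Points are the log2 fold changes (shNAT10 minus shCtrl) of the 26 small subunit and 49 large subunit genes tested, with bars of 1 SE, coloured by the call of limma at an adjusted p below 0.05. In the small subunit 5 genes are lower and 4 higher, and in the large subunit 12 are lower and 2 higher. Of all 12982 genes tested, 21.2% are lower and 20.8% higher.

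In the small subunit, 5 of 26 genes tested were lower (19.2%) and 4 were higher (15.4%), beside 21.2% and 20.8% of all genes tested. The median of -0.07 became 0.04 in TPM and -0.01 without shCtrl replicate 2. MRPS17 (ENSG00000239789, chr7:55951819-55956501, plus strand), a member with a bacterial counterpart, had 3.03, 4.85 and 3.48 FPKM in shCtrl and 2.64, 2.23 and 2.33 in shNAT10, so that every shNAT10 library was lower. Its log2 fold change was -0.61 ± 0.18 (adjusted p = 0.031, limma). For MRPS12, whose 3 shNAT10 libraries all lay below the 3 shCtrl libraries, with shCtrl replicate 2 far above the others, the log2 fold change was -0.53 ± 0.15 (adjusted p = 0.024, limma), and -0.36 without that library. MRPS18C (ENSG00000163319, chr4:83455932-83469735, plus strand), another member with a bacterial counterpart, had 9.03, 11.7 and 11.3 FPKM in shCtrl and 8.17, 7.67 and 6.75 in shNAT10, a log2 fold change of -0.49 ± 0.12 (adjusted p = 0.017, limma). MRPS2 and MRPS22 were lower as well, by -0.40 ± 0.12 and -0.29 ± 0.07 on the log2 scale. MRPS2 (ENSG00000122140, chr9:135499984-135504673, plus strand) went from 27.7, 36.0 and 27.2 FPKM to 23.6, 22.7 and 21.9. MRPS22 (ENSG00000175110, chr3:139005806-139357223, plus strand), a protein without a bacterial counterpart, went from 36.7, 40.4 and 36.8 FPKM to 31.3, 30.5 and 31.4, and neither gene showed overlap between the groups. The length and GC correction moved MRPS12 to -0.33 and MRPS2 to -0.16, and TPM moved MRPS22 to -0.18, with all 3 calls kept.

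Among the small subunit genes that were higher, MRPS33 (ENSG00000090263, chr7:141002610-141015228, minus strand) had 3.72, 5.48 and 3.82 FPKM in shCtrl and 5.66, 5.94 and 6.08 in shNAT10. All 3 shNAT10 libraries exceeded the controls, although shCtrl replicate 2 came close. The log2 fold change was 0.45 ± 0.15 (adjusted p = 0.048, limma) and 0.63 without shCtrl replicate 2. MRPS6 (ENSG00000243927, chr21:34073224-34143034, plus strand) went from 23.7, 33.6 and 27.5 FPKM to 36.6, 36.2 and 35.5, without overlap, by 0.37 ± 0.12 (adjusted p = 0.049), with 31.9% of its coding transcript shared. DAP3 (ENSG00000132676, chr1:155687960-155739010, plus strand), the GTP-binding protein of the small subunit head, first described as a death-associated protein, had 58.6, 70.1 and 62.9 FPKM in shCtrl and 76.9, 74.9 and 75.1 in shNAT10. Every shNAT10 library was above every control, with a log2 fold change of 0.25 ± 0.08 (adjusted p = 0.041, limma). MRPS25 (ENSG00000131368, chr3:15042460-15065335, minus strand) was the one riser in which shCtrl replicate 2 was the lowest control, at 10.3, 9.38 and 9.50 FPKM against 11.3, 11.6 and 11.1, by 0.22 ± 0.07 (adjusted p = 0.038). With the length and GC correction the calls of MRPS33 (0.37, adjusted p = 0.13), MRPS6 (0.30, adjusted p = 0.14) and MRPS25 (0.14, adjusted p = 0.052) were lost. The DAP3 call was lost with median centring (adjusted p = 0.061, limma) and with the replicate block (adjusted p = 0.067, limma). Over the 16 alternative settings the calls of MRPS33, MRPS6, DAP3 and MRPS25 were kept in 6, 6, 7 and 9. MRPS34 had a log2 fold change of 0.47 ± 0.16 but missed the threshold with an adjusted p of 0.053, its highest control of 70.6 FPKM reaching just above its lowest shNAT10 value of 70.3, and without shCtrl replicate 2 it was higher by 0.64 (adjusted p = 0.00095, limma).

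In the large subunit, 12 of 49 genes tested were lower (24.5%) and 2 were higher (4.08%), beside 21.2% and 20.8% of all genes tested. The median of -0.18 was -0.08 in TPM and -0.09 without shCtrl replicate 2. MRPL34 (ENSG00000130312, chr19:17292609-17306843, plus strand), a small protein with a bacterial counterpart, showed the widest difference of any member called. It had 24.9, 40.8 and 29.3 FPKM in shCtrl and 16.4, 16.9 and 13.7 in shNAT10. The highest shNAT10 library stood well below the lowest control, and the log2 fold change was -0.99 ± 0.18 (adjusted p = 0.0053, limma), or -0.79 without shCtrl replicate 2. MRPL20 (ENSG00000242485, chr1:1401908-1407313, minus strand), which binds rRNA early in assembly of the bacterial subunit, fell from 54.1, 75.8 and 61.9 FPKM to 39.2, 37.6 and 37.9, a log2 fold change of -0.73 ± 0.12 (adjusted p = 0.0034). The groups of MRPL20, which shares 27.9% of its coding transcript with another gene, did not overlap, and its shNAT10 libraries lay closer together than its controls.

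MRPL41 (ENSG00000182154, chr9:137551199-137552555, plus strand), a protein without a bacterial counterpart, had 22.2, 39.8 and 24.96 FPKM in shCtrl and 18.2, 18.5 and 15.2 in shNAT10. All shNAT10 libraries were lower, shCtrl replicate 2 stood far above the other controls, and the log2 fold change was -0.70 ± 0.21 (adjusted p = 0.035, limma) with it and -0.45 without it. MRPL12 (ENSG00000262814, chr17:81703357-81707526, plus strand), the stalk protein that contacts the translation factors and is also known to bind the mitochondrial RNA polymerase, had 2.58, 3.08 and 2.61 FPKM against 2.09, 1.501 and 1.87. The groups did not overlap and the log2 fold change was -0.58 ± 0.16 (adjusted p = 0.023, limma). It rests on few reads, 46, 64 and 63 in shCtrl and 34, 30 and 34 in shNAT10, with 68.2% of the coding transcript shared with another gene. With a correction for length and GC content the difference of MRPL12 was -0.31 (adjusted p = 0.14) and the call was lost, and with the replicate block its adjusted p was 0.052. MRPL28 (ENSG00000086504, chr16:366969-371289, minus strand) fell from 26.4, 38.3 and 28.2 FPKM to 20.6, 21.4 and 20.5, by -0.55 ± 0.14 (adjusted p = 0.017), without overlap. MRPL32 (ENSG00000106591, chr7:42932200-42948958, plus strand), whose bacterial counterpart is small and which a protease matures on import, had 14.6, 18.1 and 15.95 FPKM in shCtrl and 10.9, 11.3 and 11.6 in shNAT10, again without overlap, a log2 fold change of -0.51 ± 0.09. The other large subunit genes called lower were MRPL19 (-0.46), MRPS18A (-0.43), MRPL30 (-0.43), MRPL39 (-0.35), MRPL33 (-0.31) and MRPL18 (-0.27). The length and GC correction moved MRPL41 to -0.42, MRPL28 to -0.31 and MRPS18A to -0.24, with their calls kept, and with TPM the calls of MRPL18, MRPL19, MRPL33 and MRPL39 were lost. MRPL19 is the only member called lower in which shCtrl replicate 2 is the lowest control.

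Of the 2 large subunit genes called higher, MRPL24 (ENSG00000143314, chr1:156737303-156741590, minus strand), a protein at the exit tunnel, had 39.2, 54.2 and 40.8 FPKM in shCtrl and 59.8, 61.5 and 58.9 in shNAT10. Its shNAT10 libraries all lay above the controls, and the log2 fold change was 0.44 ± 0.12 (adjusted p = 0.027, limma) and 0.58 without shCtrl replicate 2. For MRPL3, whose values are given above, it was 0.23 ± 0.06 (adjusted p = 0.020), with no overlap between the groups.

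**Figure D3:**
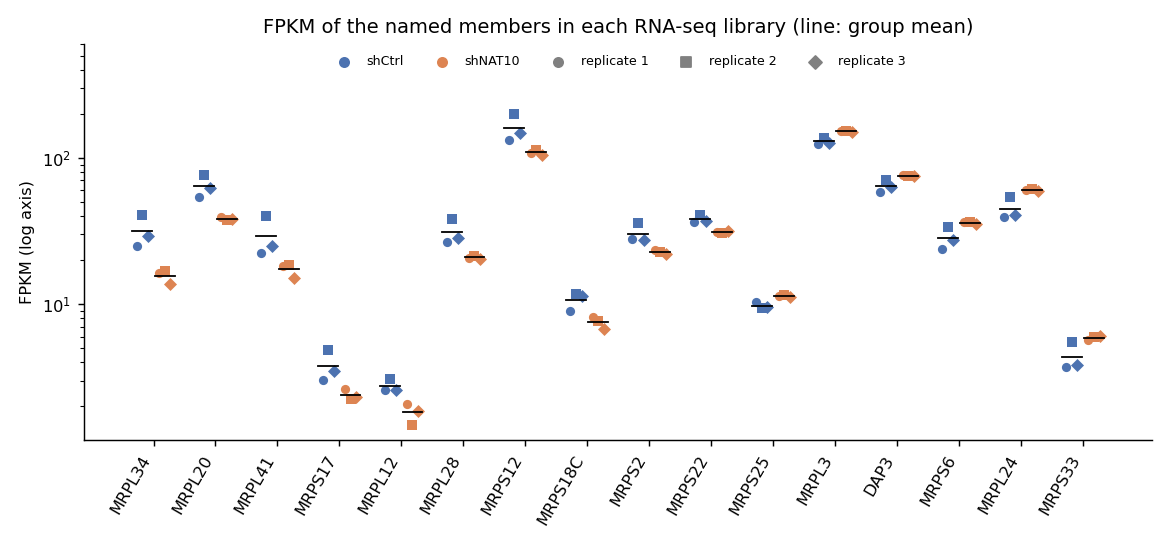
FPKM on a log axis of 16 members, those with the widest falls and rises in each subunit among members called without overlap between groups. Each library has 1 symbol (circle, square and diamond for replicates 1, 2 and 3), and a line marks each group mean. Members that were not called are left out, also where their change was wider. The genes run from MRPL34 on the left, at 24.9 to 40.8 in shCtrl and 13.7 to 16.9 in shNAT10, to MRPS33 on the right. Groups that do not overlap were a condition for all 16 genes, not a finding.

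By site within the large subunit, 1 of 5 stalk genes tested (MRPL12), 1 of 7 central protuberance genes (MRPL18) and 1 of 7 exit tunnel genes (MRPL39) were lower, and 1 exit tunnel gene (MRPL24) was higher. These were 20%, 14.3% and 14.3% lower, and 14.3% of exit tunnel genes higher, beside 21.2% and 20.8% of all genes tested. MRPL45, which ties the exit site to the inner membrane, had 19.0, 23.2 and 20.1 FPKM against 18.8, 18.7 and 17.9 (adjusted p = 0.17, limma). Reads on 2 pseudogenes named after MRPL45 came to 14.6% of its own, and how reads were divided between them was not tested. MRPL58, the peptidyl-tRNA hydrolase that was taken into the large subunit, had 17.7, 26.7 and 18.2 FPKM against 23.8, 24.9 and 21.7, with overlap through shCtrl replicate 2 (adjusted p = 0.37), and without that library it was higher by 0.38 (adjusted p = 0.0026). MRPS36 had 12.2, 17.0 and 16.4 FPKM against 11.2, 11.6 and 12.1 (log2 fold change -0.36, adjusted p = 0.060). Among the 46 tested members with a bacterial counterpart 14 were lower (30.4%) and 3 higher (6.52%), beside 21.2% and 20.8% of all genes tested. Among the 29 without one 3 were lower (10.3%) and 3 higher (10.3%). The medians were -0.20 with a counterpart and -0.12 without one. The difference between these classes was not tested.

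As a whole, the members summed to 2084, 2710 and 2252 FPKM in the shCtrl libraries and to 2155, 2180 and 2103 in the shNAT10 libraries. The sums of the shNAT10 libraries fell between those of shCtrl replicates 1 and 3, and only shCtrl replicate 2 stood apart. The cytosolic ribosomal proteins, which make up the ribosome outside the organelle, and the nuclear-encoded subunits of oxidative phosphorylation moved with that library too. It was the highest control for 95.3% and 93.5% of their genes, respectively. Of all genes tested 21.2% were lower and 20.8% higher. Of 85 cytosolic ribosomal protein genes tested, 34 were lower (40%) and 1 higher (1.18%), with a median of -0.34. Of 77 oxidative phosphorylation genes 15 were lower (19.5%) and 5 higher (6.49%), with a median of -0.19. Without shCtrl replicate 2 these medians were -0.21 and -0.05, beside -0.06 for the mitochondrial ribosomal proteins. The difference of the members from either list was not tested.

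The partners of the ribosomal proteins inside the organelle were read from the same libraries. MT-RNR2, the rRNA of the large subunit, had a mean of 9075 FPKM in shCtrl and 5625 in shNAT10, and MT-RNR1, that of the small subunit, 1576 and 1089. Both were lower, by -0.69 ± 0.08 and -0.53 ± 0.08 on the log2 scale (adjusted p = 0.00069 and 0.0025, limma), and were lower without shCtrl replicate 2 as well. Their sum was 10132, 10824 and 10999 FPKM in shCtrl and 6352, 6782 and 7009 in shNAT10, and here shCtrl replicate 2 did not stand apart. The libraries were made with an mRNA kit, so these values are of the rRNA that such a kit takes up. Of the 13 mRNAs of the mitochondrial chromosome, which the ribosome translates, 7 were lower and 0 higher, beside 21.2% and 20.8% of all genes. Without shCtrl replicate 2, 9 were lower and 0 higher, beside 25.1% and 26.1% of all genes. The 13 mRNAs summed to 45968, 50641 and 47242 FPKM in shCtrl and to 39651, 38728 and 40880 in shNAT10, without overlap. MT-ND3 (-0.75) and MT-ND2 (-0.54), subunits of complex I, had the widest falls on the log2 scale, whereas MT-ND5, another subunit, had 0.24 (adjusted p = 0.10, limma) with all shNAT10 values above the controls. These genes were chosen after their values were seen.

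Of the 50 other genes of mitochondrial translation listed (further subunits, translation factors, assembly factors and mitochondrial transcription), 11 were lower and 6 higher. These were 22% and 12%, against 21.2% and 20.8% of all genes tested. With TPM 5 were lower (10%, against 16% of all genes) and 9 higher (18%, against 25.8%). The widest falls among those called were in TFAM, which packages mitochondrial DNA (mean FPKM 20.5 in shCtrl and 11.4 in shNAT10, log2 fold change -0.84), MPV17L2, an assembly factor (11.3 and 7.40, -0.61), and TRUB2, a pseudouridine synthase (5.37 and 3.87, -0.46). The widest rises were in RCC1L, an assembly factor (12.7 and 24.9, log2 fold change 0.97), YBEY, an RNase of ribosome maturation (3.09 and 5.20, 0.74), and MTIF2, the initiation factor that brings the first tRNA (25.7 and 42.4, 0.72). The call of MPV17L2 was lost without shCtrl replicate 2, at an adjusted p of 0.053. Of the 26 assembly factors tested 8 were lower (30.8%) and 2 higher (7.69%), beside 21.2% and 20.8% of all genes tested. Of the 17 translation factors and proteins that bind mitochondrial mRNA or insert its products 1 was lower (5.88%) and 4 were higher (23.5%).

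In the acRIP-seq peak lists, of which there is 1 per line so that replicates cannot be compared, 38 members carried 51 peaks in the shCtrl list and 32 members carried 44 peaks in the shNAT10 list. Among the 76 members tested in RNA-seq, 48.7% had a peak in the shCtrl list, against 49.6% of all genes tested, 39.5% had one in the shNAT10 list, against 47.7%, and 27.6% had one in both, against 33.7%. Of all 79 members, 22 had peaks in both lists, 16 in the shCtrl list alone, 10 in the shNAT10 list alone and 31 in neither. The enrichment (fold, IP over input) had a median of 12.5 for member peaks and 49.3 for all peaks in the shCtrl list, and of 18.05 and 45.2 in the shNAT10 list. Protein-coding genes were also grouped by mean FPKM, from 1 to 20, from 20 to 40 and from 40. In the shCtrl list 42.9%, 56.7% and 44.4% of members had a peak, against 50.1%, 72.2% and 68.5% of genes. In the shNAT10 list 32.1%, 43.3% and 44.4% of members had one, against 48.3%, 68.8% and 68% of genes. Of the genes with a peak, 12.98% in the shCtrl list and 13.2% in the shNAT10 list had a mean FPKM below 0.1 in RNA-seq.

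By position, 33 of the 51 shCtrl peaks had most of those bases that lie on the longest coding transcript in its coding sequence, 10 in the 3′ UTR and 4 in the 5′ UTR, and 4 lay off that transcript. In the shNAT10 list these counts were 25, 11, 3 and 5 of 44. Of the shCtrl member peaks 20 (39.2%) overlapped a shNAT10 peak of the same gene by at least 1 base, against 25.5% of all shCtrl peaks, and of the shNAT10 member peaks 20 (45.5%) did, against 27.2%. They fell on 18 members, and 10 peaks of each list overlapped over at least 50% of both peaks. The gene length recovered from the FPKM had a median of 1711.5 bases for members tested and 3279 for all genes tested. The part of length in the shares of peaks and of overlaps was not tested.

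The highest shCtrl enrichment was on MRPS25, with a fold enrichment of 1280 in its 3′ UTR (chr3:15051607-15051996). DAP3 followed with 630, MRPS21 with 445, MRPL52 with 257 and MRPL4 with 198. In the shNAT10 list MRPS7 led with 520 (chr17:75262867-75263106), before MRPS25 with 347, MRPS27 with 320, MRPL32 with 307 and MRPL42 with 265. For MRPS7 the shNAT10 peak had 1 base on the coding sequence of that transcript, and its overlapping shCtrl peak had a fold enrichment of 2.38, and for DAP3 the peaks of the lists did not overlap. MRPL52 had a peak at the same place in both lists (chr14:22829938-22830371), at 257 in shCtrl and 78.5 in shNAT10. Each list carries its own scale and has no replicate, so no direction is drawn from such pairs.

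The coding parts of 4 peaks are shown, 2 for the overlap of the lists and 2 for a motif. For MRPL32 (shCtrl list, fold enrichment 151, chr7:42934997-42935136, plus strand) and MRPS30 (shNAT10 list, fold enrichment 19.5, chr5:44814986-44815199, plus strand), capitals mark the bases that also lie in a peak of the other list, 80 of 140 bases and 179 of 214 bases. For MRPL37 (shCtrl list, fold enrichment 8.03, chr1:54212535-54212658 and chr1:54216141-54216227, plus strand) and MRPL9 (shNAT10 list, fold enrichment 63.2, chr1:151763028-151763146 and chr1:151763327-151763475, minus strand), capitals mark a C followed by any 2 bases, 4 times in a row, the pattern known for ac4C sites, which occurs without overlap 1 time in the first and 5 times in the second. The sequences are written 5′ to 3′ along the transcript, from GENCODE v29 transcripts on GRCh38.
MRPL32: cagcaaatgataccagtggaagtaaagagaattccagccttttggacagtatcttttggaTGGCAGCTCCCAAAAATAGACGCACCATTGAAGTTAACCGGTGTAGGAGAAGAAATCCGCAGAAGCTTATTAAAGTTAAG
MRPS30: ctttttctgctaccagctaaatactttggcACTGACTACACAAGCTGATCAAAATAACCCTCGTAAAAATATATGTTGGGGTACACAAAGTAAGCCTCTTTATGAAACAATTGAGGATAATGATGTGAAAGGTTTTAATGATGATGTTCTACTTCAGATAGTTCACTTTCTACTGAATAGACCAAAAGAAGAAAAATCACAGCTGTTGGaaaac
MRPL37: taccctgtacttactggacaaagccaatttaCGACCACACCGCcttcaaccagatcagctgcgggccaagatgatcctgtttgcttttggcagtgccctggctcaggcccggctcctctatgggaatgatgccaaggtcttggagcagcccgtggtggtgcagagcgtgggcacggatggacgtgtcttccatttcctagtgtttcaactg
MRPL9: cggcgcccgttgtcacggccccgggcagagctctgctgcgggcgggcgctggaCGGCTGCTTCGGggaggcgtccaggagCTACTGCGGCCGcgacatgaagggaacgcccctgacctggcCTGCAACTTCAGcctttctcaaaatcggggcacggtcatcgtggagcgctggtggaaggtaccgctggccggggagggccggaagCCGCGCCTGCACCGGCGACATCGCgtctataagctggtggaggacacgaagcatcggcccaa

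The same pattern was found in 19 of the 40 member peaks of the shCtrl list with at least 100 bases on the transcript (47.5%), against 52.6% of all such peaks, and in 16 of 32 of the shNAT10 list (50%), against 51.7%. Member peaks had a median of 180 and 195.5 transcript bases and all peaks of 211 and 210, and the search was on the transcript strand only.

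Set beside expression, the 21 tested members with a peak in both lists had a median log2 fold change of -0.11 with 4 called lower and 3 higher. The 16 with a peak in the shCtrl list alone had -0.15 with 2 lower and 1 higher, the 9 in the shNAT10 list alone had -0.21 with 4 lower and 0 higher, and the 30 in neither had -0.18 with 7 lower and 2 higher. Of all genes tested, with or without a peak, 21.2% were lower and 20.8% higher. MRPL20, MRPL30, MRPL32 and MRPL34 were the members called lower in every alternative tried. Of these MRPL32 had a peak in both lists, MRPL30 and MRPL34 in the shNAT10 list alone and MRPL20 in neither. The MRPL34 peak lay off its longest coding transcript, and MRPL30 shares 21.7% of its coding transcript with exons of other genes.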

How the data were processed

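RNA-seq was read from the FPKM values the authors deposited, 1 column per library, which the submitters' processing notes link to HISAT2, HTSeq 0.11.0 and GRCh38. The values scale reads by gene length and library total. No per-sample column was left unused. Whole reads were recovered for 99.99% of values above 0 (tolerance 0.002 reads). The acRIP-seq lists the authors deposited hold, per peak, a fold enrichment ratio and a score, the log10 of its p-value; the peak caller is not given in the sources used here, and how 3 IP and 3 input libraries became 1 list is not stated there. Peak starts were read as counting from 0, since 99.78% and 99.85% of the inner block starts of spliced peaks in the shCtrl and shNAT10 lists then fell on an exon start.

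Log2(FPKM + 0.1) of the 12982 genes with at least 1 FPKM in at least 3 of the 6 libraries entered a linear model in limma 3.58.1 (R 4.3.3), with its variance trended on level, and p-values were adjusted over all genes tested (Benjamini-Hochberg). The pseudocount of 0.1 understates fold changes of low genes. Scaling by library totals can shift all genes together. On simulated data, of 200 genes changed among 12982, 33 were called at a log2 change of 0.5, 144 at 1 and 189 at 2, with 0, 10 and 6 unchanged genes called. The simulated noise was independent between genes, without shifts of a whole library, and in the data 2751 genes were called lower and 2699 higher. The simulation therefore checks the fit and does not give the rates of true or false calls here. Genes, transcripts and overlaps came from GENCODE v29; promoters came from RefSeq. Tables and plots used Python 3.11.15, NumPy 2.4.6, pandas 2.3.3 and matplotlib 3.10.9. The library totals inferred from the FPKM values ran from 15831720 to 23521762 reads, and the reads recovered on genes made up 99.55% to 99.59% of them. These totals are not a measured sequencing depth.

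Members and lists were chosen with earlier results of these data known. Named were NAT10, any member past a log2 change of 1, the 5 widest falls and rises per subunit among called members without overlap, the 3 highest and 3 lowest levels, members not tested, the 5 highest peaks per list, members with overlapping peaks, 3 falls and 3 rises of the other translation genes, and MRPS36, DAP3, MRPL12, MRPS12, MRPL45 and MRPL58. Other members were named after their values were seen, where a count or a printed sequence called for them. Alternatives were the pseudocount, filters, quantile and median scaling, TPM, a replicate block, no trend, voom on recovered reads, a length and GC correction, each library left out, and peak thresholds.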

Additional observations from a re-analysis of the deposited data

How the results depend on the processing

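Of the 17 members called lower, 4 (MRPL20, MRPL30, MRPL32 and MRPL34) were called in all 16 alternatives, and of the 6 called higher 0 were; no call changed direction. With libraries left out in turn, lower members numbered 5 to 31 and higher members 0 to 14 (small subunit 0 to 8 and 0 to 7, large subunit 5 to 22 and 0 to 7), other mitochondrial translation genes 3 to 13 lower and 4 to 10 higher, and the members' median ran from -0.24 to -0.06. Of all genes 13.9% to 25.1% were lower and 13.5% to 26.1% higher in those settings. Without a filter 8 members were lower (2 small, 6 large) and 0 higher. These were 10.1% and 0% of members, against 7.85% and 7.55% of all genes. Of the other translation genes 4 were lower there. Higher members numbered 3 with median centring, 3 with no trend, 3 with the replicate block and 14 with TPM (small subunit 1, 1, 1 and 7). Those were 3.95%, 3.95%, 3.95% and 18.4% of members, against 20.6%, 20.2%, 19.4% and 25.8% of all genes. With no trend 7 large subunit genes were lower, beside 20.3% of all genes. With TPM 7 large subunit genes were higher and with the length and GC correction 6, beside 25.8% and 26.9% of all genes. Quantile scaling gave 8 small subunit genes lower, beside 21.9% of all genes. Other translation genes were lower in 5 with TPM, 7 with no trend and 17 with the length and GC correction. Of all genes 16%, 20.3% and 26.1% were lower there. With the length and GC correction 11 other translation genes were higher, beside 26.9% of all genes. The cause was not tested.

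With the replicate block 17 members were lower (22.4%, against 20.1% of all genes) and 3 higher (3.95%, against 19.4%). Of these members 14 and 3 were called without the block. Same-numbered libraries correlated in their deviations at -0.04, 0.06 and 0.11, and differently numbered ones at -0.12 to 0.06. Whether same-numbered libraries shared a culture or a batch cannot be told from these values.

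Among the most enriched 50% of the peaks in a list, 10 members had one in shCtrl, 10 in shNAT10 and 3 in both, and among the 50% with the lowest p-values 21, 17 and 10. Peaks shared over 50% of both numbered 10 in place of 20. MRPS24, MRPL46 and MRPL38 were too low to test.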
